A study of Mus musculus with 6 samples.

Results

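The 163 genes described here are the solute carriers that B16-F3 mouse melanoma cells expressed outside the mitochondrial carrier family and the pigment organelle, grouped by what they carry. They were chosen by gene symbol and by abundance. Of the 22740 genes in the count table, 369 had a symbol made of Slc and a family number. The 47 mitochondrial carriers of the Slc25 family and 3 melanosome genes, Slc45a2, Slc24a4 and Slc24a5, were left out. Genes with fewer than 60 counts summed over all 6 libraries were also left out, which removed 156 entries. The limit uses the sum over both groups and not their difference. Of the 163 genes kept, 159 were counted as carriers by symbol and 4 were not, although their symbols begin with Slc. The 159 include Slc3a2, a partner of carriers, and Slc22a17, described below as a receptor.

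Solute carriers are membrane proteins that move small molecules across the plasma membrane or the membranes of organelles, by facilitated diffusion or by coupling to ion gradients. The plasma membrane sodium gradient that drives many of them is maintained by the sodium pump. In melanoma and other tumour cells they are best known for the uptake of glucose and amino acids and for the export of lactate, which leaves the cell together with protons. Metal carriers supply copper, zinc, iron and manganese to enzymes, tyrosinase among them, which needs copper to make melanin.

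B16-F3 is an established cell line of a mouse melanoma, grown here in DMEM with fetal bovine serum and antibiotics. Cells of the line were sorted by flow cytometry on the light scatter of melanin into HPC, which are high-pigmented, and LPC, which are low-pigmented, with no drug, transgene or genotype difference named between them. Each group has 3 libraries, numbered 1 to 3, of reads counted at the 3' ends of polyadenylated RNA. The comparison asks which carriers differ with the pigmentation of the cells.

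The libraries held 14695822 to 22186743 counts and 13715 to 14141 detected genes, and the 163 genes took 1.14% to 1.29% of the counts. The mitochondrial share of counts was 2.07% to 3.21%, with the highest value in HPC 1. The 6 melanocyte markers summed to 32500 to 35900 CPM (counts scaled to a library of fixed size) in HPC and 31900 to 34400 CPM in LPC. The library size behind CPM is the total count times a TMM factor, which corrects for composition. Of 7 immune markers, Ptprc, Cd3e and Itgam were at 0. The 7 together summed to 8.61 to 15.8 CPM in HPC and 4.05 to 9.44 CPM in LPC. Cd68 was the highest of them, at 9.99 ± 2.96 CPM in HPC against 4.65 ± 2.26 CPM in LPC (SD, n = 3 each, edgeR adjusted p 0.42). Of 8 fibroblast, endothelium and keratinocyte markers, Cdh5, Krt5 and Krt14 were at 0. The 8 together summed to 5.82 to 8.64 CPM in HPC and 10.3 to 17.1 CPM in LPC. Dcn, Lum and Pecam1 held 1, 7 and 19 counts in all libraries together, and Pdgfra held 710. Of these, Pdgfra was lower in HPC with the replicate block used below (edgeR adjusted p 0.0454). Without the block it was not called in edgeR (adjusted p 0.34) or DESeq2 (0.083). Col1a1 held 310 counts and was not called (edgeR adjusted p 0.78, and 0.538 with the block). The part of cells other than melanoma cells in the results was not tested. In bulk libraries, fewer cells of a kind and less RNA per cell cannot be told apart.

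No carrier passed in the main edgeR fit, which treated the libraries as unpaired. In edgeR's quasi-likelihood test, with p-values adjusted over all 11921 genes tested and a threshold of 0.05, 0 of the 163 genes were called, against 0.0419% of all genes (5 genes). The smallest adjusted p was 0.0597, for Slc44a3. At an unadjusted p under 0.05, 17 of the 163 passed (10.4%, 9 higher and 8 lower in HPC), against 9.37% of all genes. DESeq2 called 4 (2.45%), Slc44a3, Slc6a17, Slc6a15 and Slc19a2, against 1.88% of all genes, and limma-voom called 0, against 0.0419%.

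With the replicate number as a block, each HPC library is set against the LPC library of its own number. The labels state no pairing, and the numbers were taken as pairs because libraries of equal number correlated in these data. The p-values of the blocked fits depend on that choice. With the block, edgeR called 6 of the 163 genes. Slc6a17, Slc19a2, Slc16a3 and Slc37a2 were higher in HPC, and Slc44a3 and Slc38a3 were lower. Slc6a17 and Slc38a3 carry amino acids, and the others are carriers of thiamine, lactate and glucose 6-phosphate and a gene of a choline transporter family. The share called, 3.68%, stands beside 2.52% of all genes (1.43% higher and 1.10% lower), so it is close to the background. A fit by DESeq2 with the block called 9 of the 163 (5.52%, against 4.14% of all genes), and limma-voom with the block called 5 (3.07%, against 2.50%). The 6 genes are described first, each with its level in every library.

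**Figure D1:**
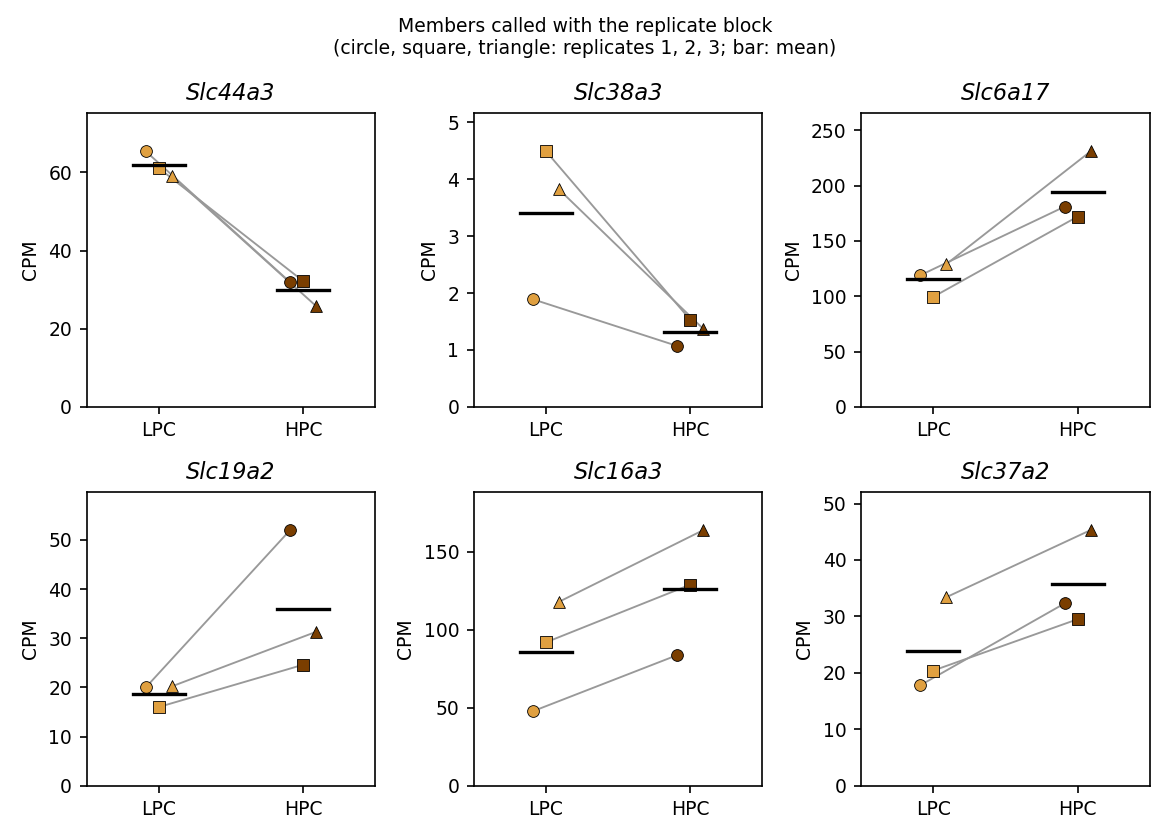
Level of the 6 called carriers in each library, in CPM on the vertical axis, with LPC at the left and HPC at the right of each panel, 1 line for each replicate number and a bar at each group's mean. All lines of Slc6a17, Slc16a3, Slc37a2 and Slc19a2 rise from LPC to HPC, and all lines of Slc44a3 and Slc38a3 fall.

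Slc44a3 is a member of the choline transporter-like family, whose best known members supply choline for phospholipid synthesis. Its level was 31.9, 32.2 and 25.8 CPM in HPC 1, 2 and 3, and 65.4, 61.1 and 59.1 CPM in LPC 1, 2 and 3. The groups were far apart, with every LPC library well above the highest HPC library. The means were 30 ± 3.65 CPM in HPC against 61.8 ± 3.23 CPM in LPC (SD, n = 3 each). With the block, Slc44a3 fell by 1.05 on the log2 scale in HPC (SE 0.1, 2.07-fold, edgeR adjusted p 0.00775), and without it the adjusted p was 0.0597. Of all 163 genes it had the smallest adjusted p in both edgeR fits. The gene (ENSMUSG00000039865) lies at chr3:121459528-121532404 on the minus strand of GRCm38.

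Slc38a3, a sodium-coupled carrier of glutamine, asparagine and histidine, was the other gene that was lower in HPC. Its level was 1.07, 1.53 and 1.37 CPM in HPC 1, 2 and 3, and 1.89, 4.49 and 3.82 CPM in LPC 1, 2 and 3. The groups did not overlap, but the gene was rare, with 19 to 85 counts in a library. With the block it fell by 1.33 on the log2 scale in HPC (SE 0.266, 2.51-fold, edgeR adjusted p 0.0495), just under the threshold. The call was lost in the blocked fits of DESeq2 (adjusted p 0.0622) and limma-voom (0.0506), and without the block in edgeR (0.291) and DESeq2 (0.101). The gene (ENSMUSG00000010064) lies at chr9:107650634-107669530 on the minus strand.

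Slc6a17 carries neutral amino acids into vesicles and is known from synaptic vesicles of neurons. Its level was 181, 172 and 231 CPM in HPC 1, 2 and 3, and 119, 99.5 and 129 CPM in LPC 1, 2 and 3. All HPC libraries lay above all LPC libraries. The means were 194 ± 31.8 CPM in HPC against 116 ± 15.1 CPM in LPC (SD, n = 3 each), a 1.67-fold difference with the block (log2 0.74, SE 0.093, edgeR adjusted p 0.0138). Without the block edgeR gave an adjusted p of 0.180 and DESeq2 gave 0.00179. The gene (ENSMUSG00000027894) lies at chr3:107467543-107518018 on the minus strand.

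Slc19a2 imports thiamine, the vitamin from which the cofactor of pyruvate dehydrogenase and transketolase is made. Its level was 52, 24.6 and 31.3 CPM in HPC 1, 2 and 3, and 20, 16 and 20.2 CPM in LPC 1, 2 and 3. HPC 1 was well above the other libraries, and the remaining HPC libraries still lay above all of LPC. With the block, HPC exceeded LPC 1.84-fold (log2 0.88, SE 0.166, edgeR adjusted p 0.0436). Without the block the log2 difference was 0.94 (edgeR adjusted p 0.297), and it was 0.59 (adjusted p 0.547) without HPC replicate 1. The gene (ENSMUSG00000040918) lies at chr1:164249046-164265385 on the plus strand.

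Slc16a3 is the proton-coupled monocarboxylate carrier known for lactate export from glycolytic cells. Its level was 83.8, 129 and 164 CPM in HPC 1, 2 and 3, and 47.8, 92.0 and 118 CPM in LPC 1, 2 and 3. The groups overlapped, and within each number the HPC library was the higher one. The log2 differences within numbers 1, 2 and 3 were 0.81, 0.49 and 0.47. With the block HPC exceeded LPC 1.5-fold (log2 0.59, SE 0.104, edgeR adjusted p 0.0363), while without the block the edgeR adjusted p was 0.694. The gene (ENSMUSG00000025161) lies at chr11:120948480-120960868 on the plus strand.

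Slc37a2 exchanges glucose 6-phosphate for phosphate across the membrane of the endoplasmic reticulum. Its level was 32.3, 29.5 and 45.3 CPM in HPC 1, 2 and 3, and 17.8, 20.4 and 33.4 CPM in LPC 1, 2 and 3. As for Slc16a3, the groups overlapped and HPC was higher within each number. With the block it was 1.52-fold higher in HPC (log2 0.60, SE 0.119, edgeR adjusted p 0.0487), and without the block the edgeR adjusted p was 0.555. The gene (ENSMUSG00000032122) lies at chr9:37227585-37255738 on the minus strand. None of the 6 genes shares its 3' end with another annotated gene.

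The 6 calls depended on which pair of libraries was in the fit. With the pair numbered 2 left out, edgeR called none of them, with adjusted p-values from 0.105 for Slc44a3 to 0.466 for Slc38a3, and called 0% of all genes. The log2 differences were then -1.11 for Slc44a3, -1.18 for Slc38a3, 0.72 for Slc6a17, 1.01 for Slc19a2, 0.64 for Slc16a3 and 0.64 for Slc37a2. Their direction was fixed beforehand, because each gene had the same sign within every number. With the pair numbered 3 left out, Slc44a3 (0.00621), Slc19a2 (0.0253) and Slc6a17 (0.0377) passed, and with the pair numbered 1 left out all 6 passed. Of the 163 genes, 4 (2.45%) were called without pair 3, against 1.64% of all genes, and 43 (26.4%) without pair 1, against 24.5% of all genes. These fits have 1 residual degree of freedom.

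The stretches of genome before RefSeq starts of 5 of these genes are shown because the genes were called together, so that their upstream sequence can be compared. They come from the RefSeq promoter table of GRCm38.p6, are written 5′ to 3′ along the gene's strand, and run up to the RefSeq start or to the first exon of the gene in GENCODE M21 that the window meets. The second case holds for Slc16a3 and Slc44a3, where the 14 and 60 bases next to the RefSeq start are not shown. The stretch of Slc16a3 lies inside the gene as GENCODE M21 draws it, after its outermost start. Slc38a3 has no entry. Capitals mark matches, on either strand, to 6 motifs. The first is CATGTG, the core of the M-box that MITF binds. CACGTG is a palindromic E-box, and the hypoxia response core ACGTG is contained in it. AP-1 sites were searched as TGACTCA, which reads TGAGTCA on the opposite strand. The composite ATF4 site was searched as TGATGNAA. The GC box core CCGCCC reads GGGCGG on the opposite strand. The stretches lie at chr3:107518019-107518268 (minus strand, Slc6a17), chr11:120948817-120949052 (plus, Slc16a3), chr3:121532405-121532594 (minus, Slc44a3), chr9:37255739-37255988 (minus, Slc37a2) and chr1:164248796-164249045 (plus, Slc19a2).
Slc6a17: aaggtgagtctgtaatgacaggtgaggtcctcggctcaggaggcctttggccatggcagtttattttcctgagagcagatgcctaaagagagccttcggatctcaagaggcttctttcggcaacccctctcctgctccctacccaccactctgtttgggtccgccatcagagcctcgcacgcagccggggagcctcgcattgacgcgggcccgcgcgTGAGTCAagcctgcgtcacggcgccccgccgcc
Slc37a2: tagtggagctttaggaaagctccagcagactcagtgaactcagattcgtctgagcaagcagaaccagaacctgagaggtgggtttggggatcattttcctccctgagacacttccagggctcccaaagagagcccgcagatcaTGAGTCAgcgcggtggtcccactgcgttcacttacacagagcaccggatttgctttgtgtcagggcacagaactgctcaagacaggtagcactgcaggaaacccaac
Slc16a3: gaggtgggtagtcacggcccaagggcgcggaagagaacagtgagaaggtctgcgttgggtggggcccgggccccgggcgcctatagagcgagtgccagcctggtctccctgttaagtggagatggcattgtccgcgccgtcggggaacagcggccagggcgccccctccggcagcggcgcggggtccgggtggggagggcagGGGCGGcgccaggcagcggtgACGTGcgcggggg
Slc19a2: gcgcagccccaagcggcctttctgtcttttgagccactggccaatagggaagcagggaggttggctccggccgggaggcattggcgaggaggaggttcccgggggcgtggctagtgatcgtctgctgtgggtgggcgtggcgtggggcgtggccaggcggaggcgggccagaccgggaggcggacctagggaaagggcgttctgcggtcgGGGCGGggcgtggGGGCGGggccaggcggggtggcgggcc
Slc44a3: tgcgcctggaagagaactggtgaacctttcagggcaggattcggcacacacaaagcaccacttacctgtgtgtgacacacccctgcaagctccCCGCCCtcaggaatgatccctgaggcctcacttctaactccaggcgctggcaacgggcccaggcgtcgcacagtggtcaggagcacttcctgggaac

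Slc6a17 and Slc37a2, both higher in HPC, each held 1 AP-1 match, whose first base lay 33 and 107 bases from the end of the stretch. AP-1 letters occurred in 4.46% of the 32851 promoters in the table. They occurred in 4.27% of the 164 promoters of the 122 genes described here that had one. The stretch of Slc16a3 held an ACGTG match 13 bases and a GC box match 34 bases before its last base, counted in the same way. That of Slc19a2 held GC box matches 40 and 27 bases before the end, and that of Slc44a3 held 1 GC box match 97 bases before it. The promoters of the table were not limited to genes expressed in these cells, while the 164 belong to genes that passed the limit of 60 counts. The part of this unlike choice in the shares was not tested. GC box letters occurred in 32.7% of all promoters and 59.8% of the 164, and ACGTG in 16.6% and 21.3%. CACGTG occurred in 6.02% and 11%, TGATGNAA in 3.45% and 3.66%, and CATGTG in 12.3% and 7.32%, with no match to these 3 in the sequences shown. A match describes letters and not binding.

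Over all 163 genes there was no shift to either side. The log2 fold change of HPC over LPC was positive for 85 and negative for 78, with a median of 0.01 and a range of -1.47 to 1.88, beside a median of -0.01 over all genes tested. A difference of more than 0.5 on the log2 scale in either direction was seen for 23 of the 163 (14.1%) and for 9.82% of all genes. The HPC and LPC libraries did not overlap for 21 (12.9%, against 14.3% of all genes). Of these, 12 were higher in HPC (7.36%, against 7.16%) and 9 were lower (5.52%, against 7.18%). These shares lie near the background.

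**Figure D2:**
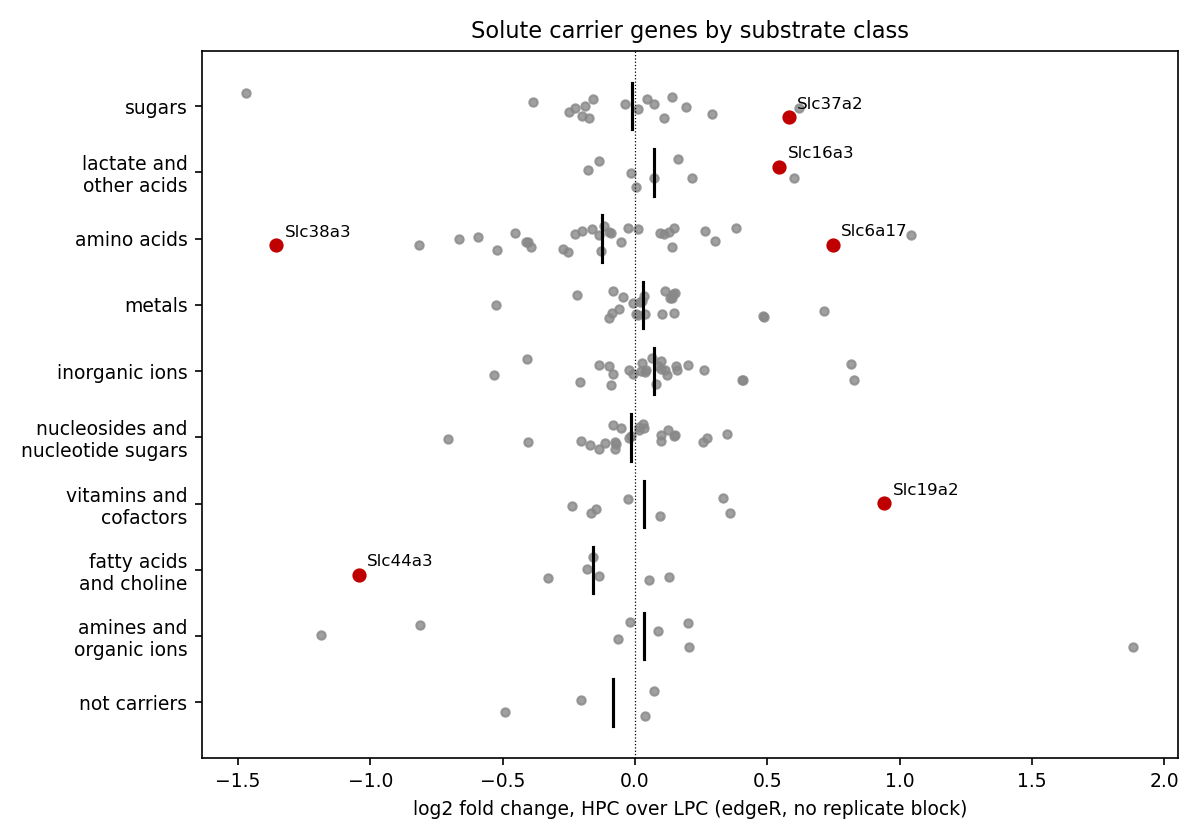
Log2 fold change of HPC over LPC (horizontal axis) for each of the 163 genes, 1 point per gene, in rows by substrate, from the edgeR fit without the block. Black bars are row medians, and red points are the genes called with the block. Points lie on both sides of 0 in every row, and the called genes fall in 5 of the rows.

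Among the 18 sugar carriers the median log2 fold change was -0.01, with 9 positive and 9 negative. With the block, edgeR called Slc37a2, and DESeq2 called Slc37a2 and Slc5a3. Slc2a1, the glucose carrier of most cultured cells, stood at 91.4 ± 3.69 CPM in HPC against 82.9 ± 10.3 CPM in LPC (SD, n = 3 each, edgeR adjusted p 0.791). Slc2a3, a glucose carrier of higher affinity, was at 31.3 ± 1.86 CPM in HPC against 36 ± 7.23 CPM in LPC (adjusted p 0.779). Slc2a5, which carries fructose, was at 65.3 ± 10.9 CPM in HPC against 67.0 ± 15.3 CPM in LPC (adjusted p 0.977). The facilitative glucose and fructose carriers therefore gave no call in either direction. Reads at 3' ends do not scale with transcript length, so CPM levels can be set beside each other, and Slc2a1 had the highest level of the 3 in all 6 libraries.

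Of the other genes of the family of Slc37a2, Slc37a3 and Slc37a1 were the sugar carriers of highest level, and Slc37a4, the glucose 6-phosphate carrier of the endoplasmic reticulum in liver, stood at 29.6 ± 3.00 CPM in HPC against 33 ± 6.05 CPM in LPC (SD, n = 3 each, edgeR adjusted p 0.838). Slc37a1 read 85.3, 90.7 and 114 CPM in HPC 1, 2 and 3, and 61.2, 79.0 and 97.3 CPM in LPC 1, 2 and 3. HPC was higher within each number, as for Slc37a2, but the groups overlapped and the blocked edgeR adjusted p was 0.166. Slc37a3 was at 135 ± 6.70 CPM in HPC against 125 ± 9.26 CPM in LPC (SD, n = 3 each, edgeR adjusted p 0.817). Slc5a3, which takes up myo-inositol with sodium, read 51.5, 46.6 and 47.8 CPM in HPC and 23.7, 32.4 and 38.7 CPM in LPC. Its groups did not overlap, but it missed the threshold in edgeR (log2 0.62, adjusted p 0.297, and 0.0846 with the block) and passed in DESeq2 with the block. Its 3' end overlaps Mrps6 and Gm49711 on the same strand, so its count may hold reads of those genes.

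The remaining sugar carriers were low or close between the groups. Slc5a1, the sodium-coupled glucose carrier of gut and kidney, read 1.07, 0.722 and 0.305 CPM in HPC and 1.82, 2.59 and 1.34 CPM in LPC. The groups did not overlap, and the log2 difference of -1.47 (SE 0.477) was the most negative of all 163 genes, with an edgeR adjusted p of 0.385. Slc45a3 stood at 21.7 ± 3.99 CPM in HPC against 25.3 ± 6.39 CPM in LPC (SD, n = 3 each), and its 3' end overlaps Gm29103 on the same strand. Slc50a1, a sugar carrier of the Golgi and plasma membrane, stood at 44.8 ± 6.49 CPM in HPC against 50.5 ± 9.26 CPM in LPC. Slc2a4, the insulin-responsive glucose carrier (0.633 ± 0.211 CPM in HPC, 0.769 ± 0.405 CPM in LPC), and Slc5a10 (0.604 ± 0.253 and 0.795 ± 0.369 CPM) were the genes just inside the abundance limit, with 74 and 72 counts in all libraries together. Just outside it were Slc44a5 with 59 counts, and Slc23a3 and Slc5a5 with 52 each.

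**Figure D3:**
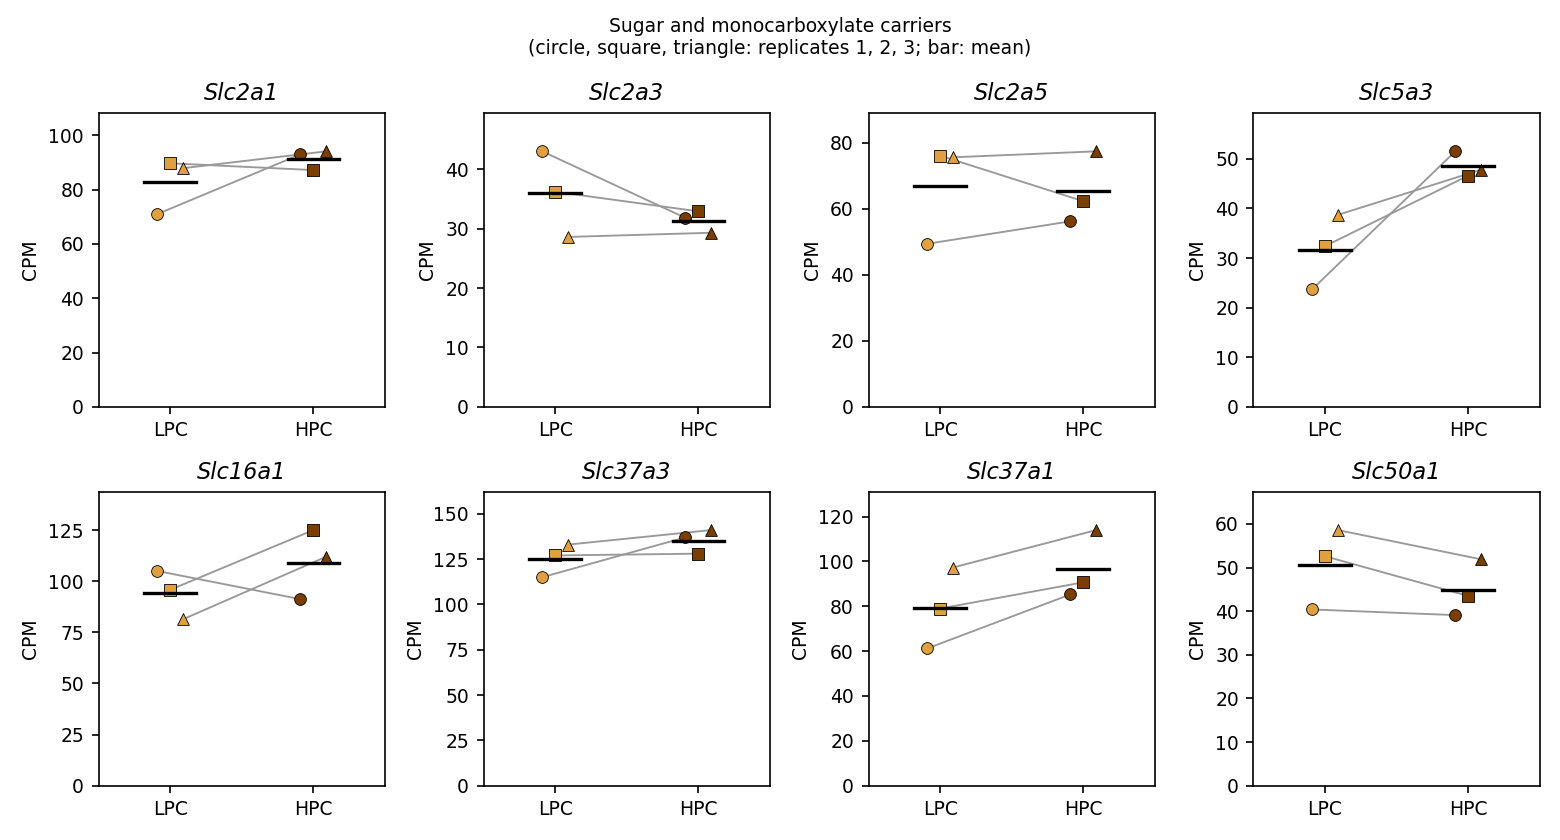
Level in CPM (vertical axis, from 0) of 8 sugar and monocarboxylate carriers in each library, with LPC at the left and HPC at the right of each panel, 1 line for each replicate number and a bar at each group's mean. All lines of Slc5a3 and Slc37a1 rise from LPC to HPC, while those of Slc2a1, Slc2a3, Slc2a5 and Slc16a1 run both ways.

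Carriers of lactate and other organic acids numbered 9, with a median log2 fold change of 0.07 and 6 positive. Their summed level was 295, 367 and 407 CPM in HPC 1, 2 and 3, and 259, 299 and 321 CPM in LPC 1, 2 and 3. Slc16a3 was the only one called. Slc16a1, which carries lactate in either direction, read 91.2, 125 and 112 CPM in HPC and 105, 95.8 and 81.4 CPM in LPC. HPC was lower than LPC within number 1 and higher within numbers 2 and 3, and the edgeR adjusted p was 0.730, or 0.454 with the block. The 2 lactate carriers were at similar levels, with means of 106 CPM for Slc16a3 and 102 CPM for Slc16a1 over all libraries.

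Slc16a13, of the same monocarboxylate family, was at 10.0 ± 1.58 CPM in HPC against 11.3 ± 1.02 CPM in LPC (SD, n = 3 each, edgeR adjusted p 0.833). Basigin (Bsg), the chaperone that brings Slc16a1 and Slc16a3 to the cell surface, was at 664 ± 122 CPM in HPC against 637 ± 211 CPM in LPC (edgeR adjusted p 0.97).

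The 32 amino acid carriers were the most abundant group, and 21 of them had a negative log2 fold change, with a median of -0.12. Leaving out LPC 1 turned that median to 0.03. The medians of the differences within numbers 1, 2 and 3 were -0.125, -0.117 and 0.034. The summed level of the group was 6480 CPM in LPC 1 and 4740 to 5610 CPM in the other libraries. With the block, edgeR called Slc6a17 and Slc38a3, and DESeq2 called Slc6a17, Slc6a15 and Slc15a2. Slc15a2, which imports peptides with protons, was at 26.9 ± 8.77 CPM in HPC against 38.6 ± 6.97 CPM in LPC (SD, n = 3 each), with overlapping groups (blocked DESeq2 adjusted p 0.0267, blocked edgeR 0.0625). Those described next are the most abundant ones and some chosen after their values were seen.

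Slc6a6, which takes up taurine, was the carrier of highest mean level among the 163. It read 720, 608 and 601 CPM in HPC 1, 2 and 3, and 830, 653 and 731 CPM in LPC 1, 2 and 3. LPC was higher within each number, but the groups overlapped (edgeR log2 -0.20, adjusted p 0.715, and 0.304 with the block). Slc7a5 carries leucine and other large neutral amino acids as a pair with the glycoprotein encoded by Slc3a2. It read 534, 707 and 593 CPM in HPC and 919, 773 and 492 CPM in LPC. Slc3a2 read 375, 489 and 381 CPM in HPC and 533, 559 and 363 CPM in LPC. Both partners were thus lower in HPC than in LPC within numbers 1 and 2 and higher within number 3, with edgeR adjusted p-values of 0.801 for Slc7a5 and 0.782 for Slc3a2. The 3' end of Slc7a5 overlaps Gm20388 on the other strand, and the sources used here do not give the strand setting of the counts.

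Other plasma membrane amino acid carriers also varied more among the libraries than between the groups. Slc1a5, a glutamine carrier, read 190, 266 and 201 CPM in HPC and 345, 328 and 190 CPM in LPC (edgeR adjusted p 0.686). Slc7a1, which imports arginine and lysine, read 429, 519 and 340 CPM in HPC and 669, 444 and 284 CPM in LPC (adjusted p 0.951). Slc1a4, a carrier of serine, alanine and cysteine, read 127, 164 and 104 CPM in HPC and 206, 144 and 71.4 CPM in LPC (adjusted p 0.968). In these 3 genes the highest value was in LPC 1, and LPC 3 was the lowest library or tied with the lowest. Slc38a2, a sodium-coupled importer of small neutral amino acids, read 567, 579 and 439 CPM in HPC and 658, 565 and 423 CPM in LPC (adjusted p 0.967). For Slc38a2 the number accounted for 92.0% of the variation between libraries and the group for 0.8%. Slc7a11, which exchanges cystine for glutamate and thereby supplies cysteine, read 63.8, 153 and 84.4 CPM in HPC and 108, 104 and 61.2 CPM in LPC (adjusted p 0.949), with the highest value in HPC 2.

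**Figure D4:**
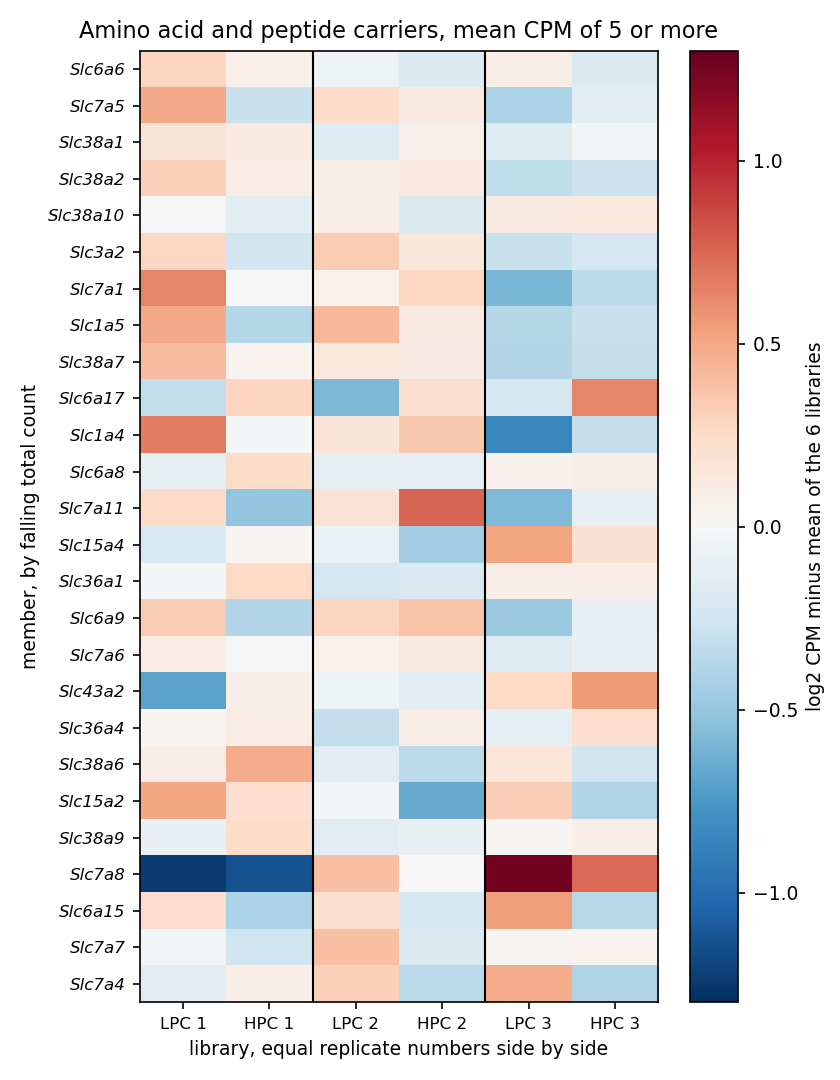
Deviation of each amino acid carrier with a mean of 5 CPM or more (rows) from its own mean over the 6 libraries (columns, equal numbers side by side), in log2 CPM, shown as colour. Slc7a5, Slc3a2, Slc1a5 and Slc7a1 are above their mean in LPC 1 and below it in LPC 3, and Slc7a8 has the opposite order.

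Slc7a8, another partner of Slc3a2, ran the other way. It read 8.98, 19.9 and 33.1 CPM in HPC 1, 2 and 3, and 8.30, 26.2 and 47.6 CPM in LPC 1, 2 and 3. Both libraries numbered 1 were low and both numbered 3 were high, so that the number accounted for 95.7% of its variation and the group for 2.1%.

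Some less abundant amino acid carriers had groups that did not overlap. Of all 32 amino acid carriers, 3 had HPC higher and 3 had LPC higher without overlap. Over all genes tested the shares were 7.16% and 7.18%. Slc6a15, which carries branched-chain amino acids and proline, read 10.4, 12 and 10.8 CPM in HPC and 16.4, 16.1 and 20.4 CPM in LPC. The groups did not overlap (edgeR log2 -0.67, SE 0.162, adjusted p 0.235, and 0.0645 with the block), and DESeq2 called it lower in HPC with and without the block. Slc43a1, a carrier of large neutral amino acids, read 2.02, 2.25 and 3.25 CPM in HPC and 3.91, 4.65 and 4.69 CPM in LPC, without overlap (adjusted p 0.406, and 0.107 with the block). Slc16a10, which carries aromatic amino acids, read 0.842, 0.857 and 1.02 CPM in HPC and 0.540, 0.317 and 0.469 CPM in LPC. Its groups did not overlap, at a level near 1 CPM, and its log2 difference of 1.04 (SE 0.390) had an edgeR adjusted p of 0.474. Slc36a4, a carrier of proline and tryptophan, read 46, 45.8 and 50 CPM in HPC and 43.7, 34.8 and 39.6 CPM in LPC, also without overlap (adjusted p 0.568).

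None of the 24 metal carriers was called, and their median log2 fold change was 0.03, with 16 positive. Slc31a1, the copper importer, read 116, 126 and 130 CPM in HPC and 109, 112 and 114 CPM in LPC. The groups did not overlap, but the difference was small (log2 0.15, SE 0.1, edgeR adjusted p 0.708, and 0.398 with the block). Its 3' end overlaps Cdc26 on the other strand. Slc39a7, which releases zinc from the endoplasmic reticulum, read 7.58, 6.18 and 5.29 CPM in HPC and 4.59, 4.12 and 4.89 CPM in LPC. It was the other metal carrier without overlap (log2 0.49, adjusted p 0.566), and its 3' end overlaps Gm20427 on the same strand. Both were picked out because their groups did not overlap. These were 2 of the 24 metal carriers, while 14.3% of all genes tested did not overlap, 7.16% with HPC higher.

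The most abundant metal carriers, Slc48a1 and Slc30a9, had means close to each other in both groups. Slc48a1, a heme carrier of endosomes and lysosomes, read 360, 412 and 507 CPM in HPC 1, 2 and 3, and 304, 433 and 510 CPM in LPC 1, 2 and 3. The number accounted for 92.3% of its variation, and its 3' end overlaps Hdac7 on the other strand. Slc30a9, of the zinc carrier family, stayed within 152 to 170 CPM in all 6 libraries (162 ± 7.52 CPM in HPC against 161 ± 7.74 CPM in LPC, SD, n = 3 each). Slc39a14, which imports zinc, manganese and iron, read 84.8, 120 and 88.6 CPM in HPC and 131, 125 and 85.8 CPM in LPC (edgeR adjusted p 0.803). Slc41a3, a magnesium carrier, read 14.5, 16.5 and 27.3 CPM in HPC and 8.84, 13 and 19.8 CPM in LPC. It was higher in HPC within each number, with overlapping groups (log2 0.49, adjusted p 0.719, and 0.101 with the block). Slc40a1, the iron exporter, read 3.48, 9.97 and 16 CPM in HPC and 4.12, 8.72 and 13.8 CPM in LPC. Its number accounted for 98.3% of the variation and its group for 0.1%.

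Carriers of ions numbered 28, with 19 positive log2 fold changes, a median of 0.07 and 0 calls. Slc12a7, which exports potassium with chloride, was the most abundant at 498 ± 100 CPM in HPC against 465 ± 57.9 CPM in LPC (SD, n = 3 each, edgeR adjusted p 0.913). Slc4a2, a chloride and bicarbonate exchanger, was at 195 ± 1.36 CPM in HPC against 186 ± 13 CPM in LPC (adjusted p 0.900), and its 3' end overlaps Fastk on the other strand. Slc26a2, which brings in sulfate, read 39.7, 31.5 and 34.4 CPM in HPC and 30.1, 23.6 and 26.2 CPM in LPC. The groups did not overlap, and the log2 differences within numbers were close to each other, 0.40, 0.42 and 0.39 (blocked edgeR adjusted p 0.0862). Slc4a11, of the bicarbonate carrier family, read 7.64, 7.40 and 6.76 CPM in HPC and 3.58, 3.49 and 5.22 CPM in LPC. It too had no overlap (log2 0.83, SE 0.233, edgeR adjusted p 0.297, and 0.0901 with the block). Slc26a7, an anion exchanger, read 4.88, 2.44 and 2.59 CPM in HPC and 2.02, 1.90 and 1.67 CPM in LPC (adjusted p 0.523). These 3 of the 28 ion carriers did not overlap between the groups, each with HPC higher. Over all genes tested, 14.3% did not overlap, 7.16% with HPC higher. The ion carrier with the most negative difference above a mean of 5 CPM was Slc12a5, a potassium and chloride exporter known from neurons. It was at 24.3 ± 5.92 CPM in HPC against 28.1 ± 11.7 CPM in LPC (adjusted p 0.885).

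Of the 25 carriers of nucleotides and nucleotide sugars, most of which feed glycosylation and sulfation in the Golgi, 0 were called and the median log2 fold change was -0.01. Slc35b2 moves the sulfate donor of sulfation reactions into the Golgi. It read 103, 92.5 and 86.6 CPM in HPC and 139, 129 and 106 CPM in LPC. The groups did not overlap, and the gene missed the threshold in edgeR (log2 -0.41, adjusted p 0.394, and 0.0735 with the block) but passed in DESeq2 with the block. Slc35b3, a second carrier of the same donor, was at 25.3 ± 0.535 CPM in HPC against 27.4 ± 1.16 CPM in LPC (SD, n = 3 each), also without overlap (adjusted p 0.833). Slc17a9, which loads nucleotides such as ATP into vesicles, read 5.56, 2.98 and 5.19 CPM in HPC and 5.94, 6.92 and 9.51 CPM in LPC (log2 -0.71, adjusted p 0.526). These 3 of the 25 were the nucleotide carriers whose groups did not overlap, and LPC was higher in each. Over all genes tested, 14.3% did not overlap, 7.18% with LPC higher. Slc35b4, the most abundant nucleotide sugar carrier, was at 127 ± 8.24 CPM in HPC against 119 ± 11.1 CPM in LPC, and its 3' end overlaps Gm13856 on the other strand. Slc35e3, with no settled substrate, had the largest positive difference of the group, at 20.4 ± 3.83 CPM in HPC against 16 ± 1.98 CPM in LPC (adjusted p 0.624).

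The summed level of the 8 vitamin and cofactor carriers was 302, 282 and 274 CPM in HPC 1, 2 and 3, and 258, 241 and 248 CPM in LPC 1, 2 and 3. It did not overlap between the groups, with means of 286 CPM in HPC and 249 CPM in LPC. No share over other summed sets was computed. Slc19a2 (mean 36 CPM in HPC, 18.7 CPM in LPC) and Slc23a2 (117 and 92.5 CPM) were the 2 of them whose own groups did not overlap. Over all genes tested, 14.3% did not overlap. The median log2 fold change of the 8 genes was 0.03, with 4 positive. Slc23a2, which takes up ascorbate, read 111, 122 and 116 CPM in HPC and 103, 87.5 and 86.8 CPM in LPC, without overlap (edgeR log2 0.33, SE 0.112, adjusted p 0.408, and 0.152 with the block). Slc19a1, the reduced folate carrier, was at 21.1 ± 1.95 CPM in HPC against 24.9 ± 2.67 CPM in LPC (SD, n = 3 each, adjusted p 0.691), and its 3' end overlaps Col18a1 on the other strand. Slc33a1, which carries acetyl-CoA into the endoplasmic reticulum, was at 55.7 ± 4.15 CPM in HPC against 52.2 ± 4.80 CPM in LPC (adjusted p 0.866).

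The choline and fatty acid carriers numbered 7, of which 5 had a negative log2 fold change, with a median of -0.16. Slc44a3, described above, was the only one called. Slc44a2, another choline transporter-like gene, read 93.0, 99.8 and 139 CPM in HPC and 103, 125 and 142 CPM in LPC. LPC was higher within each number, by less than the spread between the numbers (edgeR adjusted p 0.853, and 0.398 with the block). Slc27a4, which takes up and activates fatty acids, was at 69.7 ± 7.15 CPM in HPC against 63.7 ± 6.19 CPM in LPC (SD, n = 3 each, adjusted p 0.815).

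Carriers of amines and organic ions numbered 8, with 4 positive log2 fold changes and 0 calls. Slc18a1, which loads monoamines into vesicles, had the largest positive log2 fold change of the 163 genes, 1.88 (SE 0.682, edgeR adjusted p 0.464, and 0.110 with the block). It read 7.02, 1.13 and 1.83 CPM in HPC and 1.08, 0.792 and 0.803 CPM in LPC. HPC 1 held most of that difference, and without HPC replicate 1 it was 0.73. HPC 1 was also the library with the highest mitochondrial share, 3.21%, and the part of that share in the values of Slc18a1 and Slc19a2 was not tested. Slc22a23, with no settled substrate, read 1.35, 0.406 and 1.22 CPM in HPC and 1.82, 1.64 and 3.28 CPM in LPC, without overlap (log2 -1.19, adjusted p 0.516). Slc22a17, a receptor for the siderophore-binding protein lipocalin, read 5.11, 3.88 and 7.93 CPM in HPC and 4.18, 9.88 and 15.6 CPM in LPC (log2 -0.81, adjusted p 0.664). Slc18b1, a vesicular polyamine carrier, stood at 29.3 ± 1.82 CPM in HPC against 25.5 ± 4.29 CPM in LPC (SD, n = 3 each). Slc22a18, an organic cation carrier, was the most abundant of this group at 39.5 ± 9.12 CPM in HPC against 34.4 ± 6.22 CPM in LPC.

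The 4 genes that are not carriers gave 0 calls. Slc9a3r1 and Slc9a3r2 encode scaffolds that hold sodium and proton exchangers and other membrane proteins in place. Slc9a3r1 was at 84.3 ± 5.71 CPM in HPC against 80.2 ± 11.5 CPM in LPC (SD, n = 3 each). Slc9a3r2 read 10.8, 15.6 and 21.2 CPM in HPC and 14.4, 25.1 and 27.4 CPM in LPC, lower in HPC within each number, with overlapping groups (edgeR log2 -0.49, adjusted p 0.694, and 0.0937 with the block). Slc4a1ap was at 39.3 ± 0.913 CPM in HPC against 38.2 ± 3.26 CPM in LPC (adjusted p 0.959).

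For most carriers the replicate number took a larger share of the variation than pigmentation did. The variation of each gene's log2 CPM was divided into the share of the group (1 degree of freedom), of the number (2) and of the rest (2). With more degrees of freedom, the number would also take the larger share of unstructured variation in most genes. The 2 shares are therefore not a like comparison. The median shares over the 163 genes were 14.9%, 52.7% and 19.2%, beside 16.5%, 52.4% and 18.2% over all genes tested, so the carriers were close to the other genes in this. The number took more than 80% in 39 of the 163 genes (23.9%), beside 18.2% of all genes. These 39 included 11 of the 24 metal carriers, 9 of the 28 ion carriers, 4 of the 32 amino acid carriers and 0 of the 8 vitamin carriers. The median share of the number was 70.8% in metal carriers and 22.4% in vitamin carriers. The labels do not say what the numbers stand for.

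**Figure D5:**
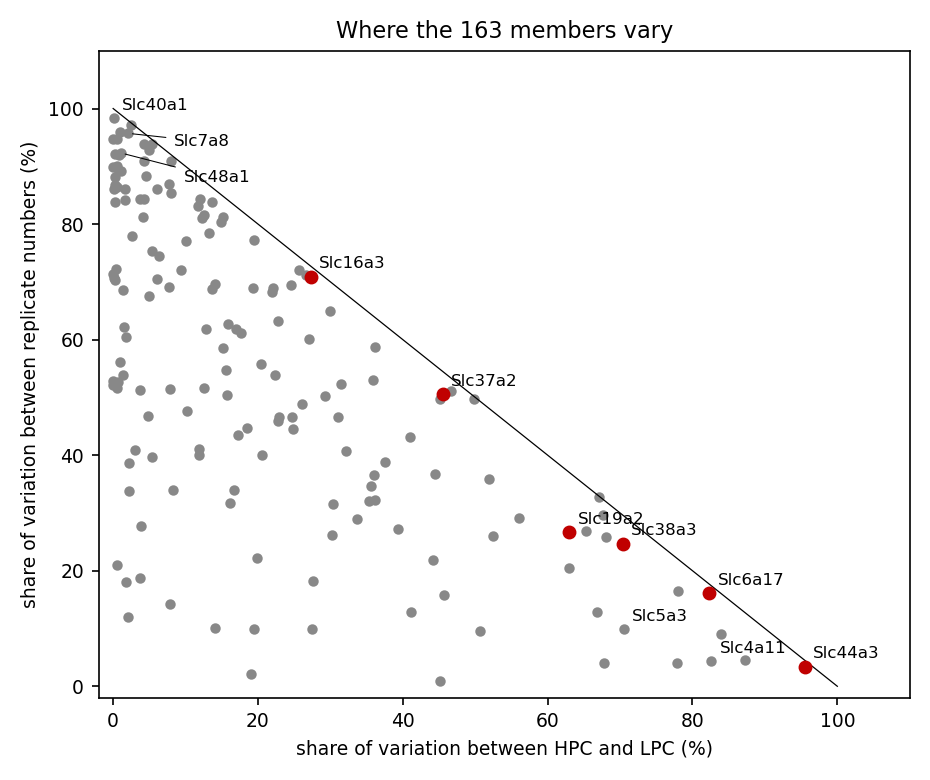
Percent of each gene's variation in log2 CPM that goes with the group (horizontal axis) and with the replicate number (vertical axis), 1 point for each of the 163 genes. Red points are the called genes, and the line marks where both shares add up to 100%. Slc44a3 and Slc6a17 lie at the right (95.5% and 82.3% with the group), and Slc40a1 and Slc7a8 at the top left (98.3% and 95.7% with the number).

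In 3 lists of transport genes without a Slc symbol, edgeR without the block called 0 genes, against 0.0419% of all genes. DESeq2 without the block called Arl6ip1 (adjusted p 0.0049) and Mfsd6 (0.046), both higher in HPC, against 1.88% of all genes. Of 10 sodium pump genes, 5 were tested and 0 called in either direction. Of 6 chaperones and regulators of carriers, all were tested and edgeR called 0, with and without the block. Of 42 symbols of carriers named otherwise, 34 were in the count table and 25 were tested. With the block 1 was called, higher in HPC, against 2.52% of all genes called (1.43% higher). It was Mfsd6, at 82.5 ± 7.80 CPM in HPC against 58.3 ± 7.62 CPM in LPC, 1.42-fold higher (edgeR adjusted p 0.0362, and 0.26 without the block).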

How the data were processed

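RNA was sequenced from 3 HPC and 3 LPC libraries of sorted B16-F3 cells with a 3' end kit (QuantSeq FWD, per the labels' protocols). STAR and GRCm38 are named in the submitters' processing notes. The sources used here do not give the counter, annotation, strand setting or molecular identifiers. Values are whole-number read counts, deposited without normalization in 1 table. Without molecular identifiers, PCR copies are not independent molecules.

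Genes were filtered with filterByExpr, which kept all 163 members, and scaled with TMM in edgeR 4.0.16 (R 4.3.3). The quasi-likelihood test had group as its only term (4 residual degrees of freedom), with Benjamini-Hochberg adjustment over 11921 genes. The blocked fit adds the replicate number (2 residual degrees of freedom). Deviations from group means correlated at 0.42, 0.35 and 0.65 within numbers 1, 2 and 3, all above the minimum of 0.1, so the numbers were taken as pairs on the evidence of the data, since the labels state no pairing. Alternatives were other scalings, no filter, DESeq2 1.42.0, limma-voom (limma 3.58.1) and leaving out libraries. DESeq2 and limma-voom with the block were added after the data were seen. The fits were tested on simulated data.

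The members and lists were chosen with earlier results of these data known. Named members were the called ones, the 2 most abundant and the largest difference in each direction (mean of at least 5 CPM) per substrate, and those beside the 60-count limit (41 genes, of which 1 is not reported here). Another 25 were named after their values were seen, for their roles or because their groups did not overlap. The labels do not say whether replicates came from separate cultures, so p-values measure the spread between these libraries. Variation shares were computed from log2 CPM (prior count 2). Coordinates and overlaps are those of GENCODE M21.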

Additional observations from a re-analysis of the deposited data

How the results depend on the processing

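The count of called members was 0 without the block under TMM, RLE, library size scaling and limma-voom, 1 under upper quartile scaling and 1 with no filter (Slc44a3 in both, adjusted p 0.0473 and 0.0222), 4 with DESeq2 and 6 with the replicate block. Leaving out each library in turn gave 0 to 1, the 1 being Slc44a3 without LPC replicate 3 (adjusted p 0.0378). The blocked count of 6 became 43 when the pair numbered 1 was left out (26.4%, against 24.5% of all genes), 4 when the pair numbered 3 was (2.45%, against 1.64%), and 0 when the pair numbered 2 was; the cause was not tested. The median log2 fold change of the members stayed between -0.022 and 0.050 in all settings. For other transport genes the count of 0 became 1 with the replicate block, against 2.52% of all genes. It became 2 with DESeq2 (Mfsd6 and Arl6ip1), against 1.88% of all genes. Of 858 values of single named members under the alternatives, 818 kept direction and side of the threshold, 13 newly passed it and 27 changed sign. None of the members that changed sign was called in a fit to all 6 libraries. Slc30a9 went to -0.0261 under upper quartile and -0.0132 under library size scaling, and Slc1a4 to 0.00549 with the replicate block and 0.00678 with limma-voom. With single libraries left out, log2 fold changes ranged from -0.0324 to 0.0421 for Slc30a9, -0.411 to 0.284 for Slc1a4, -0.0546 to 0.232 for Slc12a7, -0.214 to 0.0772 for Slc2a5, -0.299 to 0.389 for Slc7a11, -0.209 to 0.0993 for Slc38a2, -0.374 to 0.238 for Slc7a1, -0.144 to 0.210 for Slc48a1, -0.391 to 0.602 for Slc40a1, -0.038 to 0.156 for Slc9a3r1, -0.555 to 0.239 for Slc2a4, -0.916 to 0.252 for Slc7a8, -0.405 to 0.183 for Slc12a5 and -0.0286 to 0.0893 for Slc4a1ap. With 3 libraries a group, counts near 1 CPM rest on few reads, as for Slc16a10, Slc2a4, Slc5a10 and Slc5a1.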

Other observations

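Of the 156 entries under the limit of 60 counts, 74 had 0 counts in all 6 libraries. Slc35f4 was entered with 22 counts and again with 0 counts, so it is counted among the nucleotide sugar carriers at 0. By substrate, 31 carriers of amines and organic ions fell under the limit (21 at 0) against 8 that passed, and 23 of lactate and other acids (11 at 0) against 9. For amino acids 32 fell under the limit (14 at 0) against 32 that passed, and for ions 27 (14 at 0) against 28. For sugars 10 fell under it (4 at 0) against 18, for nucleotides and nucleotide sugars 12 (3 at 0) against 25, and for metals 9 (3 at 0) against 24. For fatty acids and choline 7 fell under it (3 at 0) against 7, and for vitamins and cofactors 5 (1 at 0) against 8. The spread over the substrates was not tested. Genes at 0 included Slc6a2 and Slc6a3, the reuptake carriers of noradrenaline and dopamine, and Slc22a6 and Slc22a8, organic anion carriers of the kidney. They also included Slc34a1 and Slc12a1, kidney carriers of phosphate and of sodium, potassium and chloride, and Slc1a3, a glutamate carrier of astrocytes. Annotated 3' ends that are misplaced would also give a count of 0, and this was not tested.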
